A study of Mus musculus with 10 samples.

Results

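Fibroblasts sorted from mouse mammary tumours, called CAF in the sample titles, were compared gene by gene with the cells sorted from such tumours under the title CSC, for cancer stem cells. The comparison used the 3 arrays titled CAF and the 2 titled CSC, 5 of the 10 arrays of the series, and all 12394 genes that the array annotation names by a single symbol. Each gene was read by 1 probe set, the one with the highest mean over the 10 arrays. CAF and CSC both came from mammary tumours of FVB/N mice whose genotype is written WAPCre-DNbcatn;HGF, and no age or treatment is given. The genotype thus names a Cre recombinase under the promoter of the milk gene Wap, a construct written DNbcatn, read here as beta-catenin, and HGF, hepatocyte growth factor. All 5 arrays share it, so neither group is an unmodified control. The other arrays, which entered the fit for its error only, hold fibroblasts from control glands of wild-type FVB/N mice (COF, 3 arrays) and a population from the same kind of tumour titled TEC (2 arrays), whose sorted-cell field reads TEFs. The sources used here name no gate for the sorts, and nothing states that arrays of a group came from separate mice, so p-values measure only the spread between these samples, which may be technical.

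Cancer-associated fibroblasts lay down the fibrous matrix of a tumour and secrete enzymes, growth factors and chemokines. Cancer stem cells are defined by their capacity to start and maintain a tumour, and in mammary tumours they are usually isolated as epithelial cells by surface proteins such as CD24, CD29 and CD49f. Wnt ligands and HGF act on epithelial cells through Frizzled receptors and Met, and beta-catenin carries the canonical Wnt signal into the nucleus. Hedgehog ligands are often made by epithelium and received by stroma, where Gli1 and Ptch1 are transcribed in response. The comparison therefore addresses which genes separate the fibroblasts from the CSC population, and which ligands and receptors lie on opposite sides.

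Of the 12394 genes, 8247 (66.5%) passed the test at an adjusted p under 0.05. CAF was higher for 4145 genes (33.4%) and CSC for 4102 (33.1%), and the median difference over all genes was 0.015. All values are log2 values, so a difference of 1 means a factor of 2, and differences are means over arrays with a moderated standard error, written ±. Where ± follows the mean of 1 group instead, it gives the SD over the arrays of that group. At a difference of at least 1, 1663 genes (13.4%) were higher in CAF and 1754 (14.2%) were higher in CSC, together 3417 (27.6%). At a difference of at least 3 the counts were 430 (3.47%) and 363 (2.93%), and at 5 or more they were 90 and 66. The CAF and CSC arrays did not overlap for 10159 genes (82%), so lack of overlap was the usual state here. With such a background a share of passing genes near 66.5% says nothing about a list.

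The CAF arrays agreed closely with each other, as did the CSC arrays. Gene-by-gene differences had an SD of 0.145, 0.205 and 0.225 between pairs of CAF arrays and of 0.369 between the CSC arrays, against 1.37 to 1.46 between a CAF and a CSC array. Precision is limited by the small number of arrays. The TEC arrays, whose spread also enters every standard error, differed more, with an SD of 0.550. Their medians of the fibroblast marker list were 8.54 and 11.20, so standard errors of such genes include that gap. The CSC arrays had lower low-end values, with lower quartiles of 5.08 and 5.05 against 5.21 to 5.26 in CAF. Among the 1789 genes under the lower quartile on all 5 arrays, 725 were called higher in CAF and 167 higher in CSC, with a median difference of 0.23. After a second quantile normalization these counts were 456 and 312.

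**Figure D1:**
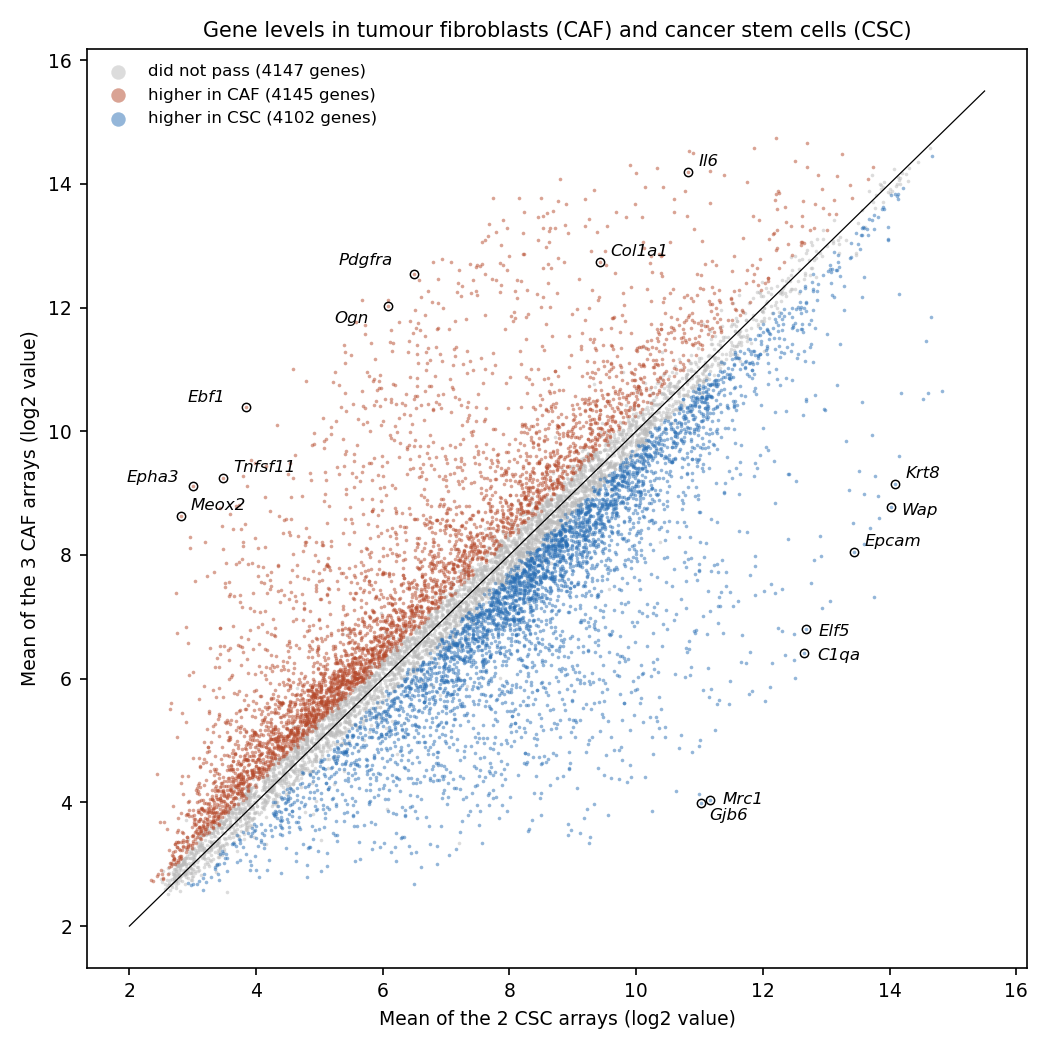
Each point is 1 of 12394 genes, plotted by its mean over the 2 CSC arrays (x axis, log2 value) and over the 3 CAF arrays (y axis, log2 value), with the diagonal of equal levels. Red points (4145) were higher in CAF, blue points (4102) were higher in CSC and grey points (4147) did not pass; open circles mark named genes such as Pdgfra on the CAF side and Mrc1 on the CSC side.

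The labels were first set against marker genes of the cell types the sorts could hold. All 20 measured fibroblast markers were higher in CAF, and all 20 epithelial markers were higher in CSC. Pdgfra, the PDGF receptor that marks fibroblasts, read 12.62, 12.62 and 12.40 on the CAF arrays and 6.55 and 6.43 on the CSC arrays. The difference was 6.06 ± 0.61 (adjusted p = 2.71e-05), and every CAF array lay above every CSC array. Cdh1, the adherens junction cadherin of epithelium, read 6.25, 6.80 and 7.10 on the CAF arrays and 12.53 and 12.45 on the CSC arrays. It was higher in CSC by 5.77 ± 0.44 (adjusted p = 5.18e-06), again without overlap.

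The CSC arrays also held leukocyte transcripts. Of the 12 measured leukocyte markers 11 were higher in CSC, and of the 17 macrophage markers all 17 were. The leukocyte list had a median value of 10.76 and 10.02 on the CSC arrays against 6.57 to 7.88 on the CAF arrays, and its summed level on the log2 scale was 13.82 to 14.40 against 10.51 to 11.73. For macrophages the medians were 11.32 and 11.28 against 5.86 to 6.29, and the summed level 15.88 to 16.08 against 11.14 to 11.70. No macrophage marker lay under the lower quartile on both CSC arrays. Ptprc, the pan-leukocyte phosphatase CD45, read 7.04, 7.35 and 8.88 on the CAF arrays and 11.36 and 10.61 on the CSC arrays, a difference of 3.23 ± 0.55 in favour of CSC. Thus both CSC arrays carried CD45 message above every CAF array, with the third CAF array standing above the other two.

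In bulk RNA of this kind, fewer cells of a type and less RNA per cell cannot be told apart. Fibroblast transcripts in CSC were not at the bottom of the scale: Lum, a collagen-binding proteoglycan, read 8.43 and 8.56 and Vim, vimentin, 12.52 and 12.48 on the CSC arrays. Likewise Krt8 read 8.81, 9.11 and 9.52 on the CAF arrays. Endothelial markers were mostly dim in both groups, with list medians of 6.20 to 6.33 in CAF and 4.81 to 4.86 in CSC. Of the 12 endothelial markers 8 were higher in CAF, led by Tek by 5.33 ± 0.51, while the defining marker Pecam1 was 4.91 ± 0.06 in CAF and 4.72 ± 0.24 in CSC (adjusted p = 0.558) and did not pass. Of 12 pericyte and smooth muscle markers 8 were higher in CAF and 2 in CSC, a count of 1 without CAF replicate 1, without CAF replicate 2 or without CSC replicate 1. Rgs5, a pericyte marker, was higher in CAF by 3.76 ± 0.19.

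**Figure D2:**
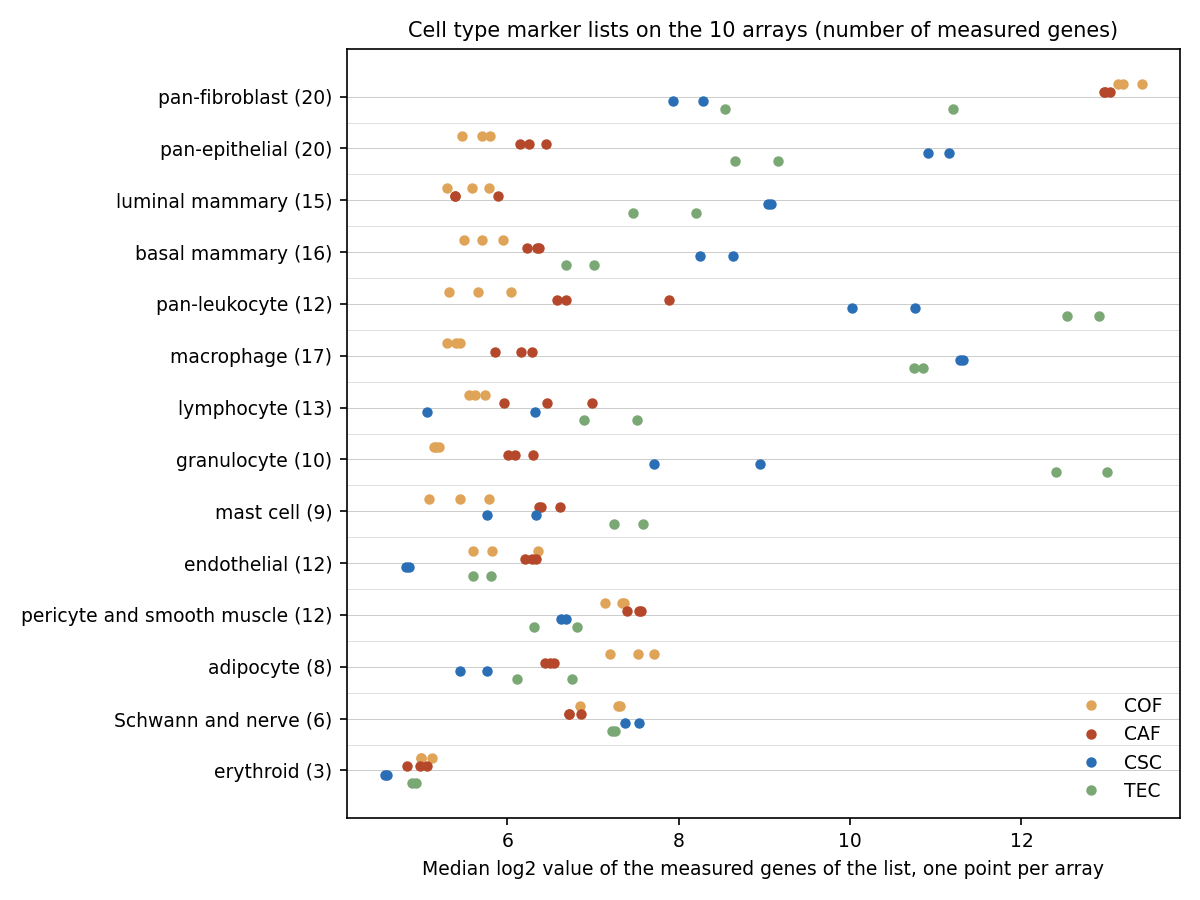
For each of 14 cell type marker lists (y axis, number of measured genes in brackets) the median log2 value of its genes is shown on each of the 10 arrays, coloured by group (x axis). The fibroblast list lies at 12.96 to 13.03 in CAF and 7.94 to 8.28 in CSC, and the epithelial list at 6.15 to 6.45 and 10.91 to 11.15; the macrophage and leukocyte lists stand higher in CSC than in CAF.

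The 15 genes with the greatest differences in favour of CAF held a transcription factor, receptors and matrix genes. Ebf1, a transcription factor, led with 6.55 ± 0.32, from 10.43, 10.49 and 10.27 on the CAF arrays and 3.82 and 3.86 on the CSC arrays. Cyp7b1, an oxysterol hydroxylase, followed with 6.46 ± 0.60 and Ptger3, a prostaglandin E2 receptor, with 6.42 ± 0.49. Further receptors were Pdgfra and Epha3, an ephrin receptor, the latter by 6.12 ± 0.58. The matrix and matrix-binding genes were Pcolce2 by 6.18 ± 0.65, Srpx2 by 6.02 ± 0.53, Abi3bp by 5.94 ± 0.66, Ogn by 5.94 ± 0.79, Aspn by 5.99 ± 0.77 and Adamts5 by 5.88 ± 0.72. Cdh11, the cadherin typical of mesenchyme, was higher by 6.03 ± 0.54. The remaining genes were Apod by 6.04 ± 0.53, Scara3 by 6.01 ± 0.71 and Reg3g by 5.87 ± 0.36. Lack of overlap between the CAF and CSC arrays was a condition for choosing these 15 genes.

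Among the 15 greatest differences in favour of CSC, macrophage and epithelial genes stood side by side. Mrc1, the macrophage mannose receptor, led with 7.13 ± 0.20, from 4.15, 3.81 and 4.19 on the CAF arrays and 11.02 and 11.33 on the CSC arrays. Other genes of myeloid cells were Ms4a6d by 6.84 ± 0.15, C1qb by 6.38 ± 0.27, C1qa by 6.25 ± 0.23, Clec4e by 6.45 ± 0.25, Ccl6 by 6.25 ± 0.18 and F13a1 by 6.07 ± 0.15, and Il10, an anti-inflammatory cytokine, was higher by 6.40 ± 0.19. The 3 probe sets of Ms4a6d disagreed, 1 of them being higher in CAF. Genes of epithelium were Gjb6 and Gjb2, the gap junction connexins, by 7.04 ± 0.33 and 6.50 ± 0.24, Pigr, which carries immunoglobulin A into milk, by 6.09 ± 0.25, Muc15, a mucin, by 6.19 ± 0.41 and Glycam1, a milk mucin, by 6.44 ± 0.42. Aldoc, a glycolytic aldolase, was higher by 6.08 ± 0.18 and Slc28a3, a nucleoside transporter, by 6.04 ± 0.20. The leukocyte values given above move with the myeloid genes of this set, and their part in the result was not tested.

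Most matrix genes lay on the CAF side. All 21 measured matrix glycoproteins and elastic fibre genes were higher in CAF, with a median difference of 3.99 against 0.015 over all genes, and so were all 14 collagen processing enzymes, with a median of 3.59. Of 22 proteoglycan genes, 18 were higher in CAF, 3 were higher in CSC and 1 did not pass, with a median of 3.18. Of 21 collagens, 17 were higher in CAF, 2 were higher in CSC and 2 did not pass, with a median of 3.08.

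Col1a1, a chain of the main fibrillar collagen, read 12.72, 12.73 and 12.76 on the CAF arrays and 9.66 and 9.20 on the CSC arrays, a difference of 3.31 ± 0.67 (adjusted p = 0.00202). The spread over the CAF arrays and over the CSC arrays was small beside it. Other chains higher in CAF were Col8a1 by 5.03 ± 0.56, Col12a1 by 4.20 ± 0.41 and Col6a3 by 3.78 ± 0.28. The collagens higher in CSC were Col17a1, the hemidesmosome collagen of epithelium, by 3.67 ± 0.19, and Col7a1, the anchoring fibril collagen, by 0.92 ± 0.29. Without CSC replicate 1 the Col7a1 call was lost (adjusted p = 0.158), which left 1 collagen on that side.

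Among the glycoproteins, Mfap5 by 5.68 ± 0.62, Fbln5 by 4.73 ± 0.44 and Mfap4 by 4.14 ± 0.40, which are elastic fibre proteins, were higher in CAF, as were Vtn, vitronectin, by 3.99 ± 0.29 and Fn1, fibronectin, by 3.04 ± 0.23. Among the enzymes that modify collagen, Loxl1 by 5.56 ± 0.62, Loxl3 by 3.97 ± 0.45, Plod1 by 2.79 ± 0.16 and Pcolce by 4.94 ± 0.53 were higher. Loxl1 and Loxl3 are cross-linking oxidases, Plod1 hydroxylates collagen lysines and Pcolce helps to cleave the propeptide. Of the proteoglycans, Fmod by 5.61 ± 0.58, Lum by 5.27 ± 0.55 and Gpc3 by 5.20 ± 0.52 were higher in CAF. The exceptions were cell surface syndecans: Sdc3 was higher in CSC by 0.51 ± 0.11, though not with its probe sets averaged, Sdc4 by 0.80 ± 0.17 and Sdc1 by 1.01 ± 0.32, the last of them without a call when CAF replicate 1, CSC replicate 1 or CSC replicate 2 was left out (adjusted p = 0.0569, 0.103 and 0.0505).

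Matrix proteases followed the same side. Of 26 proteases and inhibitors, 21 were higher in CAF, 2 were higher in CSC and 3 did not pass, with a median of 3.06. Ctsk, the collagen-degrading cathepsin K, was higher in CAF by 5.50 ± 0.48, and among metalloproteases Mmp3 by 5.62 ± 0.56, Mmp23 by 4.97 ± 0.42 and Adamts4 by 3.84 ± 0.40. Mmp23 read 10.98, 10.95 and 10.81 on the CAF arrays and 6.04 and 5.85 on the CSC arrays, so its CSC values lay just over the lower quartile of those arrays. The protease genes higher in CSC were Adam8, a metalloprotease of leukocytes, by 3.57 ± 0.22, and Mmp7, matrilysin of glandular epithelium, by 0.92 ± 0.10. Of 18 contractile genes 11 were higher in CAF, with a median of 0.89. Tagln, an actin-binding protein of smooth muscle and myofibroblasts, was higher by 3.64 ± 0.60. Acta2, smooth muscle actin, read 11.93, 12.12 and 12.08 on the CAF arrays and 10.35 and 9.26 on the CSC arrays. Its call was lost without any one of the 3 CAF arrays or CSC replicate 2, the highest adjusted p being 0.166 without the latter.

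The basement membrane, the sheet on which epithelium rests, split by chain. Of 18 genes, 9 were higher in CAF, 7 were higher in CSC and 2 did not pass, with a median of 0.62. On the CAF side stood Col4a2 by 4.85 ± 0.54, Nid2 by 4.0 ± 0.29 and Lama2 by 4.04 ± 0.36. On the CSC side stood Lama3 by 3.89 ± 0.19, Lamb3 by 3.98 ± 0.11 and Col4a6 by 3.61 ± 0.17. Lama3 and Lamb3 are chains of an epithelial laminin that cells bind through integrin alpha 6 beta 4. Both subunits of that integrin were higher in CSC, Itga6 by 4.39 ± 0.24 and Itgb4 by 3.12 ± 0.14. Col4a2 read 12.13, 12.30 and 12.29 on the CAF arrays and 7.64 and 7.15 on the CSC arrays and Lamb3 4.97, 4.95 and 5.23 on the CAF arrays and 9.11 and 8.95 on the CSC arrays, so neither pair of groups overlapped. Of 19 integrins, 9 were higher in CAF, 8 were higher in CSC and 2 did not pass. Itgam and Itgb2, the leukocyte integrin subunits, were among those higher in CSC, by 3.92 ± 0.31 and 4.20 ± 0.20, and Itga2, of a collagen receptor, was higher in CAF by 1.55 ± 0.10.

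**Figure D3:**
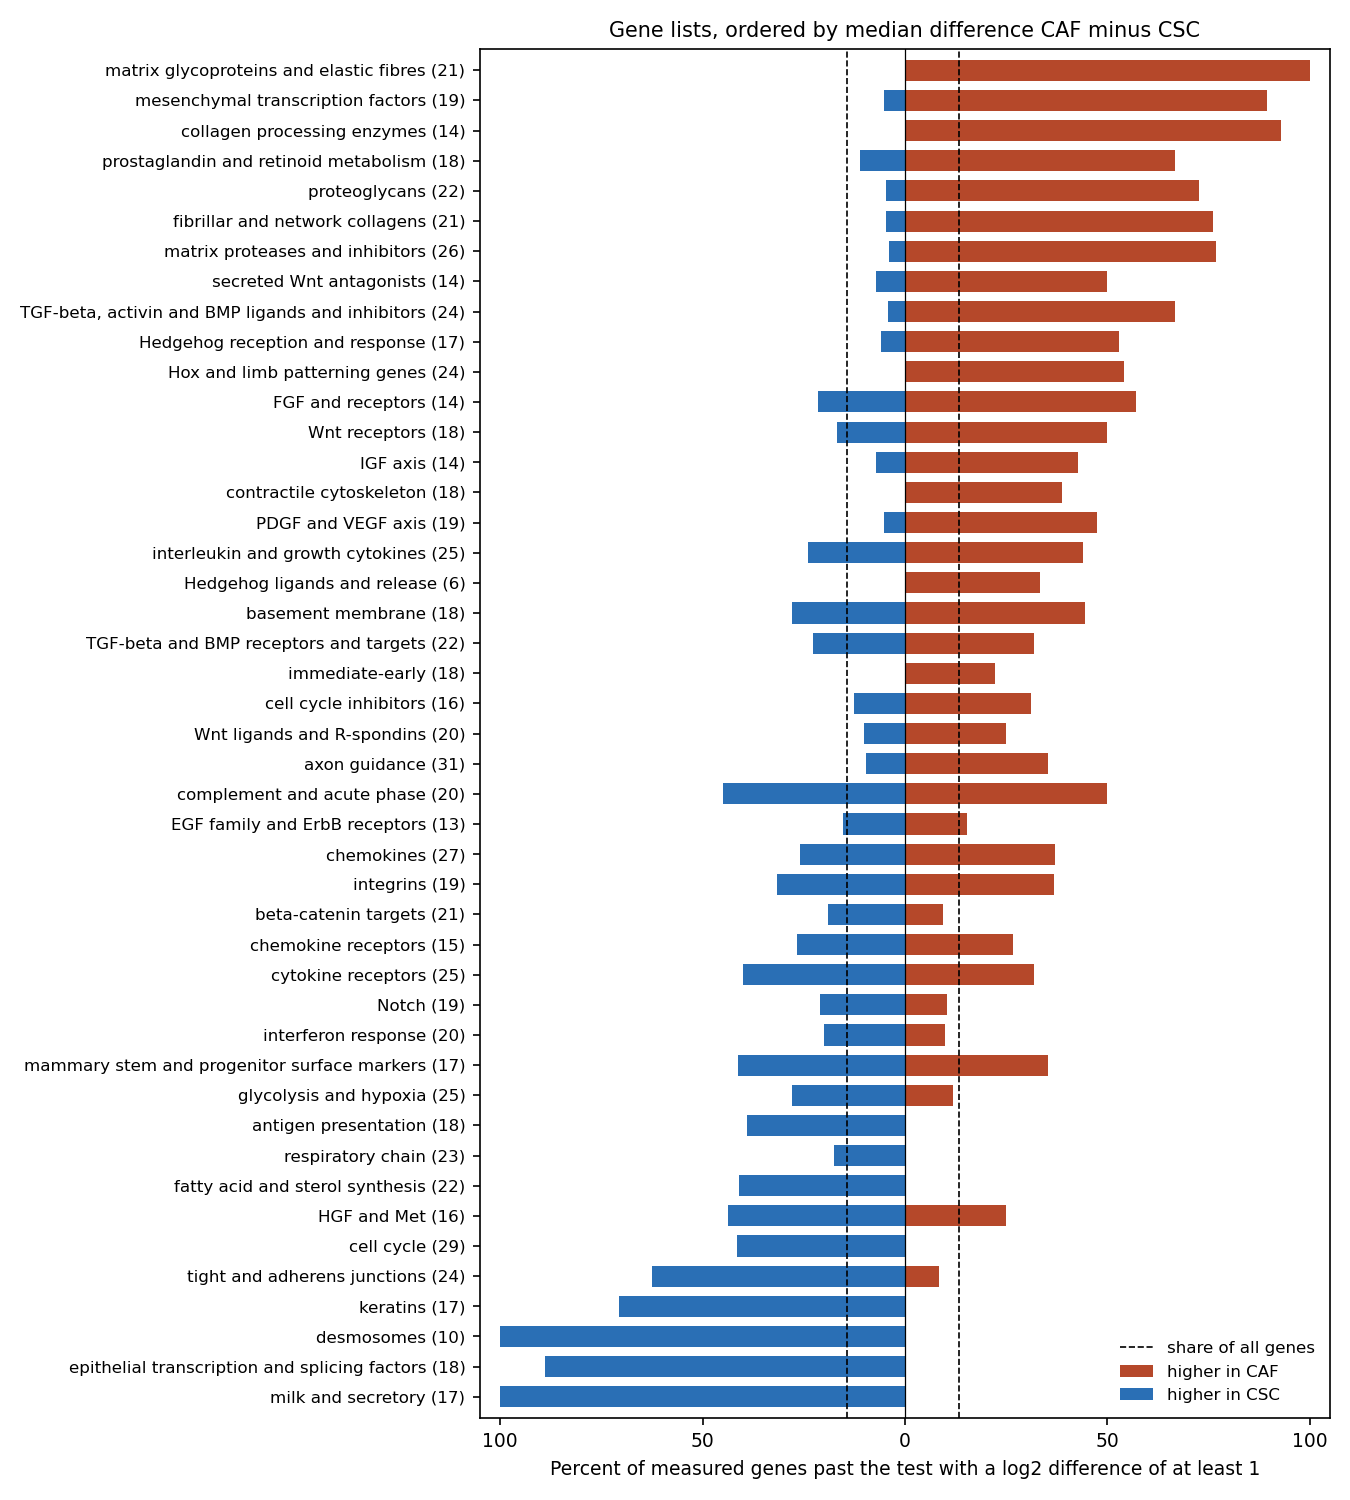
Each row is 1 of the 45 functional gene lists, ordered by the median difference CAF minus CSC, with its number of measured genes in brackets. Bars give the percent of those genes that passed the test with a log2 difference of at least 1, red to the right for higher in CAF and blue to the left for higher in CSC; dashed lines mark the shares over all genes, 13.4% and 14.2%. Matrix glycoproteins stand at the top and milk genes at the bottom.

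Junction and cytoskeletal genes of epithelium lay on the CSC side. All 10 measured desmosome genes were higher in CSC, with a median difference of -3.42. Of 24 tight and adherens junction genes 18 were higher in CSC, with a median of -2.38, and 5 were higher in CAF, a count of 3 without CAF replicate 1, CAF replicate 3 or CSC replicate 2. Dsg2, a desmosomal cadherin, was higher in CSC by 5.68 ± 0.24 and the tight junction genes Cldn7 by 5.90 ± 0.25, Ocln by 5.43 ± 0.22 and Marveld2 by 5.45 ± 0.14. The cadherins of mesenchyme were on the other side, Cdh11 by 6.03 ± 0.54 and Cdh2 by 4.79 ± 0.49. Cdh2, N-cadherin, read 8.44, 8.52 and 8.31 on the CAF arrays and 3.56 and 3.71 on the CSC arrays, the reverse of the Cdh1 pattern.

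Of 17 keratins, 1 was higher in CAF, 12 were higher in CSC and 4 did not pass, with a median of -2.89. The 1 keratin higher in CAF was not so called without CSC replicate 2. Keratins of luminal cells, Krt8 by 4.94 ± 0.39, Krt19 by 5.42 ± 0.18 and Krt7 by 4.19 ± 0.16, and of basal cells, Krt5 by 4.22 ± 0.26, Krt14 by 4.52 ± 0.28 and Krt17 by 5.75 ± 0.29, were higher in CSC together. Krt8 read 8.81, 9.11 and 9.52 on the CAF arrays and 14.23 and 13.96 on the CSC arrays and Krt14 7.28, 7.31 and 7.46 on the CAF arrays and 12.13 and 11.60 on the CSC arrays. Both kinds of keratin thus stood above every CAF array on both CSC arrays. Trp63, the transcription factor of basal cells, and Elf5, that of luminal progenitors, were both higher in CSC, by 5.31 ± 0.25 and 5.88 ± 0.35. Of 15 luminal markers, 4 were higher in CAF, 9 were higher in CSC and 2 did not pass, and of 16 basal markers, 4 were higher in CAF, 8 were higher in CSC and 4 did not pass. The 4 luminal genes on the CAF side were 1 without CSC replicate 1, 2 without CAF replicate 2 and 1 after a second quantile normalization. The one with a large difference was Aldh1a3, an aldehyde dehydrogenase, by 3.60 ± 0.36. Mylk, a myosin kinase of contractile basal cells, went against the basal keratins and was higher in CAF by 1.59 ± 0.15.

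Transcription factors divided in the same way. Of 18 epithelial transcription and splicing factors 17 were higher in CSC and none in CAF, with a median of -3.51. Of 19 mesenchymal factors, 17 were higher in CAF, 1 was higher in CSC and 1 did not pass, with a median of 3.65. Esrp1, the splicing regulator of epithelial isoforms, read 4.88, 5.10 and 5.04 on the CAF arrays and 10.84 and 11.16 on the CSC arrays, a difference of 5.99 ± 0.19. Ehf, an epithelial ETS factor, was higher in CSC by 4.87 ± 0.19. On the CAF side, Meox2 by 5.82 ± 0.33, Twist1 by 5.06 ± 0.42 and Tbx18 by 4.43 ± 0.31 were higher. Zeb1 and Snai1, repressors of epithelial genes, were higher in CAF by 3.69 ± 0.15 and 1.63 ± 0.21. Snai2, of the same family, was 7.44 ± 0.15 in CAF and 7.61 ± 0.63 in CSC (adjusted p = 0.751), with a 95% confidence interval of the difference -1.22 to 0.87, and did not pass. Foxc1 went against its list and was higher in CSC by 3.17 ± 0.30, from 7.01, 6.96 and 7.05 on the CAF arrays and 9.58 and 10.76 on the CSC arrays.

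Zeb1 and the Snail factors recognise the E-box CAGGTG, whose reverse complement is CACCTG, and promoters of epithelial genes that were higher in CSC are shown for that reason. They were searched in the 250 bases before the start site of RefSeq genes (GRCm38.p6). 10 of the 12 epithelial markers with such a window held the E-box, against 19.4% of all 27025 genes with a window. Among the matrix glycoproteins it was 2 of 15, among keratins 6 of 9, among junction genes 8 of 16, among proteoglycans 0 of 16 and among desmosome genes 0 of 2. Among epithelial transcription and splicing factors it was 3 of 8 and among collagens 2 of 16. A window of this length also meets the 6 letters by chance, and a match is not a bound site. Other patterns searched on both strands were AACCNGTT (Grhl factors, 1 of the 12 epithelial and 0 of the 15 matrix glycoprotein genes with a window, 2% of all genes), GACCACCC (Gli factors, 0 and 0, 0.814%), GGAATG (TEAD factors, 2 and 2, 14.4%), TGANTCA (AP-1, 1 and 2, 7.82%) and AGGAAG (ETS factors, 4 and 5, 32.3%). A gene counted if any of its windows held the pattern.

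The promoters of Epcam, Elf5 and Cldn4 follow, 5′ to 3′ on the strand of the gene, ending at the base before the start site, with the E-box in capitals. They were picked by name, all hold the E-box, and they do not stand for epithelial genes at large. Elf5 is not in the epithelial marker list counted above.
Epcam (chr17:87635729-87635978, plus strand): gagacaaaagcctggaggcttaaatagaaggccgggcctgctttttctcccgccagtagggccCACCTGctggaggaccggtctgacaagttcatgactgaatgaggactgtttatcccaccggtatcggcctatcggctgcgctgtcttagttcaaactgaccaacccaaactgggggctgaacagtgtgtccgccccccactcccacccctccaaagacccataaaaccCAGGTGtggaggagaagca
Elf5 (chr2:103411848-103412097, plus strand): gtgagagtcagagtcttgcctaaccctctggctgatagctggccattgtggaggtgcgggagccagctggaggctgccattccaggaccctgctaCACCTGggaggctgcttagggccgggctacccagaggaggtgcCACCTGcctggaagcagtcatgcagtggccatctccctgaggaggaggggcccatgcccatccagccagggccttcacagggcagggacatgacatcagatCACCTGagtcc
Cldn4 (chr5:134946935-134947184, minus strand): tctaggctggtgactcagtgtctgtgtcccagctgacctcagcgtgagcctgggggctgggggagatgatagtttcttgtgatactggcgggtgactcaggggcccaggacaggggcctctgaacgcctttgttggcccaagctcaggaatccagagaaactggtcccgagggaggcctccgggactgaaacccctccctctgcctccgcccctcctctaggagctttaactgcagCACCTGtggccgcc
Epcam, an epithelial adhesion protein, had the E-box 187 and 19 bases before the start site, Elf5 155, 112 and 11 bases before it and Cldn4, a tight junction claudin, 14 bases before it, counted from the first letter of the match. On the arrays Epcam read 7.74, 8.14 and 8.23 on the CAF arrays and 13.48 and 13.41 on the CSC arrays. Elf5 read 6.31, 6.58 and 7.49 on the CAF arrays and 12.52 and 12.84 on the CSC arrays, and Cldn4 7.61, 7.83 and 8.32 on the CAF arrays and 12.99 and 12.64 on the CSC arrays. All these genes were higher in CSC, Epcam by 5.41 ± 0.34 and Cldn4 by 4.89 ± 0.38, with no overlap between the groups.

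Milk genes were higher in CSC throughout the list. All 17 measured milk and secretory genes passed in that direction, with a median difference of -3.99. Wap, whose promoter drives the Cre of these mice, read 8.75, 8.67 and 8.91 on the CAF arrays and 14.02 and 14.02 on the CSC arrays, a difference of 5.24 ± 0.14 (adjusted p = 3.29e-08). On the COF arrays it read 5.96, 5.66 and 5.85, so the CAF arrays lay above the wild-type fibroblasts and below CSC. Folr1, a folate receptor, was higher in CSC by 5.88 ± 0.21, Pigr by 6.09 ± 0.25 and Btn1a1, of the milk fat globule membrane, by 5.96 ± 0.16. Lalba, the lactose synthase subunit, was higher by 5.53 ± 0.12. Of 22 genes of fatty acid and sterol synthesis, 3 were higher in CAF, 14 were higher in CSC and 5 did not pass, with a median of -0.74. Scd1, a fatty acid desaturase, was higher in CSC by 4.32 ± 0.13, and Srebf1, the lipogenic transcription factor, by 2.39 ± 0.12.

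Genes used to isolate mammary stem and progenitor cells did not lie on the CSC side alone. Of 17, 8 were higher in CAF and 9 were higher in CSC. Cd24a read 7.90, 8.04 and 8.60 on the CAF arrays and 13.54 and 13.65 on the CSC arrays and was higher in CSC by 5.41 ± 0.20. Itga6 encodes CD49f, whose difference is given above, and Itgb1, which encodes CD29, was higher in CAF by 0.78 ± 0.13. Prom1, CD133, was higher in CSC by 4.84 ± 0.18 and Kit, a receptor of luminal progenitors, by 4.88 ± 0.35. In CAF, Thy1 by 4.80 ± 0.70, Procr by 1.97 ± 0.24 and Cd44 by 1.63 ± 0.13 were higher, and fibroblasts are known to express Thy1 and Cd44. Cd44 read 13.46, 13.49 and 13.47 on the CAF arrays and 12.01 and 11.67 on the CSC arrays, so it was well above the median of all genes in both groups. Cd14, higher in CSC by 3.79 ± 0.16, is also in the macrophage list.

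**Figure D4:**
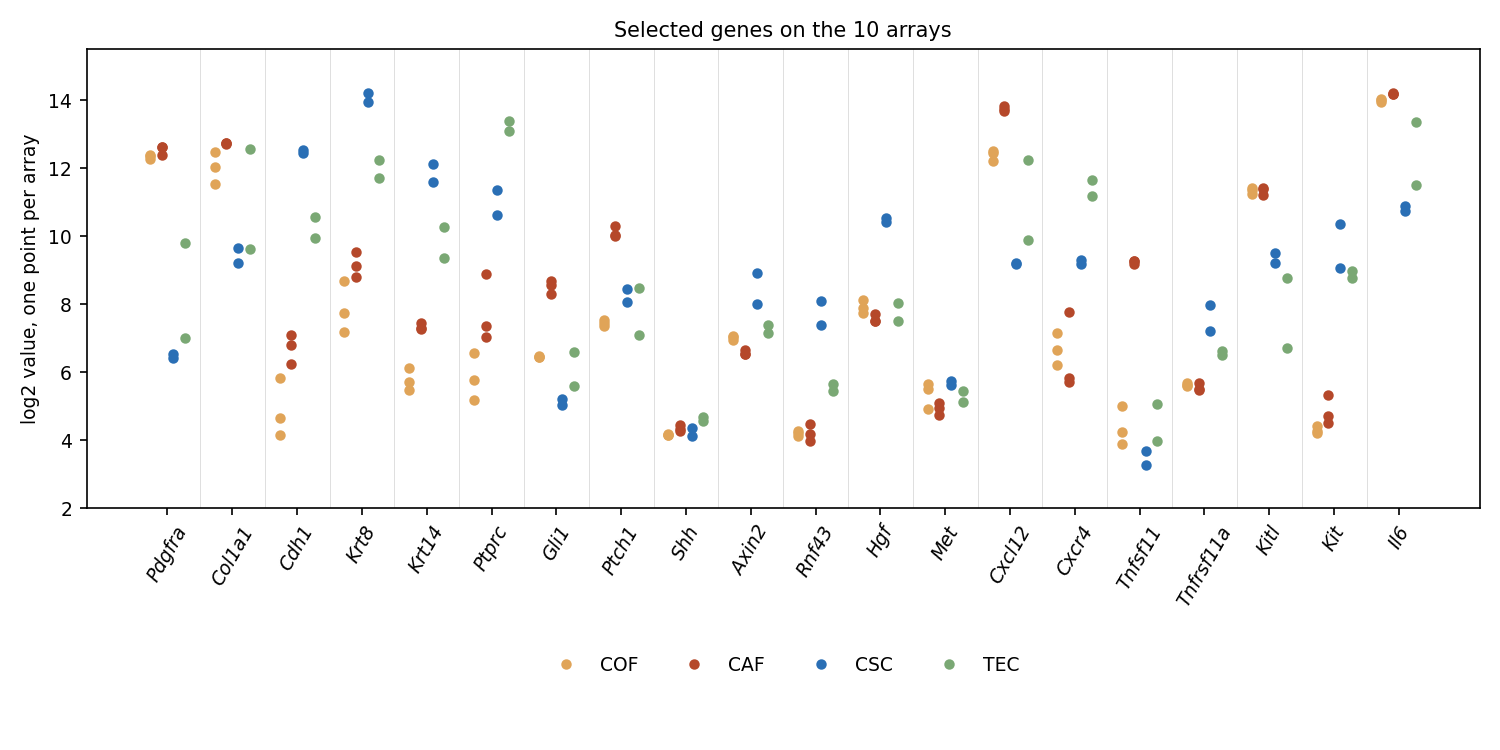
The log2 value of 20 genes (x axis) is shown on each of the 10 arrays (y axis, 1 point per array), coloured by group. Pdgfra, Gli1, Ptch1, Cxcl12, Tnfsf11 and Kitl lie higher on the 3 CAF arrays than on the 2 CSC arrays, and Cdh1, Krt8, Krt14, Ptprc, Axin2, Rnf43, Hgf, Cxcr4 and Kit lie lower; the Shh points overlap near 4.

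Genes that receive and answer Hedgehog lay largely on the CAF side. Of 17 measured, 13 were higher in CAF, 1 was higher in CSC and 3 did not pass, with a median of 1.28. Gli1, the transcription factor that is also a target of the pathway, read 8.31, 8.58 and 8.68 on the CAF arrays and 5.20 and 5.03 on the CSC arrays. The difference was 3.41 ± 0.25 (adjusted p = 3.64e-06), and the wild-type fibroblasts stood between at 6.45, 6.44 and 6.49. Ptch1, receptor and target, read 10.02, 10.29 and 10.05 on the CAF arrays and 8.05 and 8.44 on the CSC arrays, a difference of 1.87 ± 0.33. Its COF arrays read 7.37, 7.54 and 7.46, below both tumour groups. The effector Gli2 was higher in CAF by 3.44 ± 0.35, the transcription factor Foxf2 by 1.67 ± 0.13, the inhibitor Hhip by 2.41 ± 0.21 and the co-receptor Gas1 by 3.51 ± 0.52. The 1 gene higher in CSC was the cyclin Ccnd1, by 2.91 ± 0.21, from 8.25, 8.32 and 8.02 on the CAF arrays and 11.01 and 11.19 on the CSC arrays; without CSC replicate 1 the count on that side was 2.

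The ligand Shh was near the floor. It read 4.27, 4.43 and 4.32 on the CAF arrays and 4.35 and 4.13 on the CSC arrays, under the lower quartile of each array, and did not pass (adjusted p = 0.419, 95% confidence interval of the difference -0.13 to 0.32). Ihh and Dhh were called higher in CAF by 0.53 ± 0.11 and 0.77 ± 0.15. Ihh read 4.92, 4.82 and 4.86 on the CAF arrays and 4.43 and 4.25 on the CSC arrays, under the lower quartile of each array. Dhh read 6.08, 6.05 and 5.88 on the CAF arrays and 5.29 and 5.17 on the CSC arrays, over the lower quartile and under the median of each array. Of the 6 genes for ligands and their release 4 were higher in CAF, and when the dimmest 30% of genes were left out none was.

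Target genes of beta-catenin lay on both sides, as genes did in general. Of the list 61.9% passed, near the 66.5% of all genes, so its counts say nothing about the list. Of 21 measured targets, 6 were higher in CAF, 7 were higher in CSC and 8 did not pass, with a median of 0.011, close to the all-gene median. Axin2, a general feedback inhibitor of the pathway, read 6.53, 6.64 and 6.54 on the CAF arrays and 8.0 and 8.93 on the CSC arrays and was higher in CSC by 1.89 ± 0.22 (adjusted p = 7.35e-05). Rnf43, which removes Frizzled receptors, read 3.97, 4.47 and 4.18 on the CAF arrays and 7.40 and 8.09 on the CSC arrays and was higher in CSC by 3.54 ± 0.21. The cyclin Ccnd1 was higher in CSC too, as given above. Lgr5, the R-spondin receptor that is a target in intestinal stem cells, was the other way, 7.38, 7.20 and 6.93 on the CAF arrays and 5.46 and 5.30 on the CSC arrays, a difference of 1.79 ± 0.19. Cd44, also listed as a target, was higher in CAF by 1.63 ± 0.13. Ctnnb1, beta-catenin itself, was 12.64 ± 0.10 in CAF and 12.78 ± 0.02 in CSC (adjusted p = 0.227) and did not pass; no source used here says whether its probe set reads the construct.

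Of 20 Wnt ligand genes and partners, 10 were higher in CAF, 2 were higher in CSC and 8 did not pass, with a median of 0.40, and 5 of those higher in CAF and 0 of those higher in CSC were left when the dimmest 30% of genes were left out. That cut used the mean over all 10 arrays, so it could also remove a gene that was bright in CSC alone. Wnt2 and Wnt16 were higher in CAF by 4.12 ± 0.53 and 2.47 ± 0.28, and Rspo2, an R-spondin, by 1.61 ± 0.16. Wnt10a and Wnt5b were the ligands higher in CSC, by 3.29 ± 0.20 and 2.33 ± 0.21. Wnt2 read 9.28, 9.25 and 9.13 on the CAF arrays and 5.25 and 4.96 on the CSC arrays and Wnt10a 4.46, 4.43 and 4.43 on the CAF arrays and 8.16 and 7.31 on the CSC arrays, a mirror image with no overlap. Wnt5a, a non-canonical ligand, was 7.44 ± 0.26 in CAF and 7.50 ± 0.91 in CSC (adjusted p = 0.913) and did not pass. Of 14 secreted antagonists, 10 were higher in CAF, 3 were higher in CSC and 1 did not pass, with a median of 1.76, and 0 of those higher in CSC were left without the dimmest genes. Sfrp2 by 5.59 ± 0.61, Sfrp4 by 5.08 ± 0.34 and Dkk3 by 4.55 ± 0.30 were higher in CAF, and Sostdc1 was higher in CSC by 1.01 ± 0.09. Sfrp2 read 12.61, 12.50 and 12.26 on the CAF arrays and 7.08 and 6.64 on the CSC arrays. Of 18 receptors, 12 were higher in CAF, 4 were higher in CSC and 2 did not pass. Fzd4, Fzd1 and Fzd2 were higher in CAF by 3.12 ± 0.18, 2.79 ± 0.18 and 2.49 ± 0.21, and Fzd6 was higher in CSC by 2.86 ± 0.19.

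Hgf, the ligand named in the genotype, was higher in CSC than in the fibroblasts. It read 7.71, 7.50 and 7.49 on the CAF arrays and 10.41 and 10.54 on the CSC arrays, and 7.73, 8.11 and 7.87 on the COF arrays, a difference of 2.91 ± 0.17 in favour of CSC (adjusted p = 1.10e-06). The CSC arrays thus stood above all 6 fibroblast arrays. The macrophage list moves with it, at medians of 11.28 to 11.32 in CSC and 5.86 to 6.29 in CAF, and its part in the result was not tested. No source used here says whether the probe set reads the transgene. Met, its receptor, read 4.75, 4.94 and 5.10 on the CAF arrays and 5.75 and 5.62 on the CSC arrays and was higher in CSC by 0.75 ± 0.21, a call lost without CSC replicate 1 (adjusted p = 0.0685). St14, the protease matriptase that activates HGF, was higher in CSC by 5.24 ± 0.21, and so were its inhibitors Spint1 by 3.20 ± 0.17 and Spint2 by 4.80 ± 0.11. Of the 16 genes of the axis, 4 were higher in CAF, 10 were higher in CSC and 2 did not pass, with a median of -0.77. On the CAF side were another activating protease, Hgfac, by 1.95 ± 0.11 and Mst1r, the receptor of the related ligand Mst1, by 1.97 ± 0.24. Mst1 itself was higher in CSC by 1.08 ± 0.15.

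TGF-beta and BMP ligands and their inhibitors lay mainly on the CAF side, where 17 of 24 were higher, against 1 in CSC, with a median of 1.29. Gdf10, a BMP family ligand, was higher by 5.21 ± 0.53, and the BMP antagonists Chrdl1 by 2.73 ± 0.22, Chrd by 2.08 ± 0.11 and Grem1 by 1.59 ± 0.19. Inhbb, an activin subunit, was the gene higher in CSC, by 1.02 ± 0.15. Tgfb1, the best known ligand, was 6.69 ± 0.08 in CAF and 6.64 ± 0.26 in CSC (adjusted p = 0.765) and did not pass, with a 95% confidence interval of the difference -0.28 to 0.39. Of 22 receptors and targets, 10 were higher in CAF, 5 were higher in CSC and 7 did not pass. Tgfbr2, the type II receptor, was higher in CAF by 2.69 ± 0.19. Genes downstream of the ligands fell on both sides, with the co-receptor Eng higher in CAF by 1.38 ± 0.15, and the targets Id2 and Id1 higher in CSC by 1.63 ± 0.20 and 1.72 ± 0.22.

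FGF ligands were mostly higher in CAF. Of 14 genes of the family, 10 were higher in CAF and 4 were higher in CSC, with a median of 1.10. Fgf7, a stromal ligand for epithelium, read 10.62, 10.57 and 10.29 on the CAF arrays and 6.03 and 5.75 on the CSC arrays, a difference of 4.60 ± 0.48. Fgf18, Fgf10 and Fgf2 were higher by 3.49 ± 0.41, 3.22 ± 0.14 and 3.23 ± 0.19. Fgfrl1, a receptor of the family without a kinase domain, was higher in CAF by 0.98 ± 0.11. Fgfr2, whose epithelial isoform binds Fgf7 and Fgf10, was higher in CSC by 0.79 ± 0.20, but not so called without CSC replicate 1 (adjusted p = 0.0645), and its probe sets differed in sign. Fgfr3 was higher in CSC by 1.0 ± 0.17.

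Among the EGF family, Ereg was higher in CAF by 5.16 ± 0.64, from 11.75, 11.70 and 11.57 on the CAF arrays and 6.37 and 6.67 on the CSC arrays, and its receptor Egfr by 2.74 ± 0.48. Erbb3, the neuregulin receptor, was higher in CSC by 4.75 ± 0.21, from 5.92, 5.92 and 6.26 on the CAF arrays and 10.44 and 11.12 on the CSC arrays, and the ligand Tgfa by 2.63 ± 0.34, although another of its probe sets was higher in CAF. Of the 13 measured genes, 5 were higher in CAF, 5 were higher in CSC and 3 did not pass. The counts depended on single arrays: 3 genes were higher in CAF without any one of the 5 CAF and CSC arrays, and 2 were higher in CSC without CSC replicate 2. Of 14 IGF genes, 8 were higher in CAF, 1 was higher in CSC and 5 did not pass. Igf1, the growth factor, was higher in CAF by 5.15 ± 0.59, and the binding proteins Igfbp3 and Igfbp6 by 5.33 ± 0.59 and 4.71 ± 0.16. The gene higher in CSC was Igfbp2, by 1.56 ± 0.42, which was not called without CSC replicate 1 (adjusted p = 0.0899).

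In the PDGF pathway the receptors were higher in CAF and the ligands lay on both sides. Pdgfrb, like Pdgfra a receptor of mesenchyme, was higher in CAF by 5.74 ± 0.69, from 11.13, 11.25 and 11.30 on the CAF arrays and 5.82 and 5.16 on the CSC arrays. The ligands Pdgfa and Pdgfc were higher in CSC by 0.84 ± 0.20 and 1.69 ± 0.31, and Pdgfb by 0.54 ± 0.13, whereas the ligand Pdgfd was higher in CAF by 2.39 ± 0.31. Pdgfc read 8.73, 8.79 and 8.84 on the CAF arrays and 10.21 and 10.76 on the CSC arrays and Pdgfd 7.37, 7.25 and 6.82 on the CAF arrays and 4.43 and 5.09 on the CSC arrays, neither with overlap. Of 19 genes of the PDGF and VEGF axis, 13 were higher in CAF, 3 were higher in CSC and 3 did not pass. Vegfc, the ligand of lymphatic vessels, and Angpt1, a ligand of Tek, were higher in CAF by 4.36 ± 0.50 and 2.30 ± 0.16. In the Notch pathway 6 of 19 genes were higher in CAF and 10 in CSC. Notch1, the receptor, was higher in CSC by 2.32 ± 0.14, and the modifier Lfng by 1.46 ± 0.17. The ligand Jag1 was higher in CAF by 1.02 ± 0.17 and the target Heyl by 1.44 ± 0.10.

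Chemokines divided evenly by count, 12 of 27 higher in CAF and 12 higher in CSC, but by different members. On the CAF side were Cxcl12 by 4.57 ± 0.51, Ccl2 by 3.15 ± 0.28, Ccl7 by 2.36 ± 0.33 and Cxcl1 by 1.24 ± 0.09. Cxcl12, the ligand of Cxcr4, read 13.83, 13.74 and 13.68 on the CAF arrays and 9.20 and 9.17 on the CSC arrays (adjusted p = 5.42e-05). On the CSC side were Ccl6 by 6.25 ± 0.18, Ccl3 by 5.23 ± 0.34, Ccl9 by 4.12 ± 0.20 and Ccl4 by 4.18 ± 0.24, ligands that myeloid cells are known to make. Receptors for chemokines included Ccr1 and Ccr2, higher in CSC by 4.80 ± 0.27 and 3.90 ± 0.25. Of the 15 receptors 4 were higher in CAF and 4 in CSC, and 7 were higher in CSC without CSC replicate 2. The macrophage markers stand beside these genes at 11.28 to 11.32 in CSC and 5.86 to 6.29 in CAF, and their part in the result was not tested.

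Of 25 interleukins and growth cytokines, 14 were higher in CAF, 8 were higher in CSC and 3 did not pass. Tnfsf11, RANK ligand, a progesterone-dependent signal of the mammary gland, read 9.27, 9.28 and 9.18 on the CAF arrays and 3.68 and 3.26 on the CSC arrays. The difference was 5.78 ± 0.36 (adjusted p = 1.39e-06), and the COF arrays read 3.90, 5.0 and 4.25, near the CSC level. The decoy receptor Tnfrsf11b, osteoprotegerin, was also higher in CAF by 3.65 ± 0.65. Kitl, stem cell factor, was higher in CAF by 2.0 ± 0.46. Il6, an inflammatory cytokine, read 14.19, 14.18 and 14.21 on the CAF arrays and 10.75 and 10.89 on the CSC arrays and was higher in CAF by 3.37 ± 0.41. In CSC, Il10 by 6.40 ± 0.19, Il1b by 6.02 ± 0.24, Il1rn by 4.55 ± 0.25 and Il1a by 3.67 ± 0.20 were higher, all cytokine genes of activated myeloid cells. Il1b read 5.78, 5.61 and 5.88 on the CAF arrays and 12.27 and 11.28 on the CSC arrays, whereas its receptor Il1r1 read 11.90, 11.83 and 11.84 on the CAF arrays and 7.88 and 8.18 on the CSC arrays. Of 25 cytokine receptors, 9 were higher in CAF, 10 were higher in CSC and 6 did not pass.

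Complement and acute-phase genes also split by member, 10 of 20 being higher in CAF and 9 in CSC. Of the classical and alternative pathway, the proteases C1ra by 5.43 ± 0.53 and Cfi by 4.67 ± 0.32 were higher in CAF, whereas the C1q chains C1qa and C1qb, which macrophages make, were higher in CSC as given above, and Cfp, properdin, by 3.78 ± 0.15. The acute-phase gene Saa2 was higher in CSC by 4.86 ± 0.30, but Ptx3, a pentraxin, was higher in CAF by 3.53 ± 0.48. Saa2 read 8.58, 8.57 and 9.68 on the CAF arrays and 13.83 and 13.79 on the CSC arrays. Of 18 antigen presentation genes 12 were higher in CSC, with class II genes in front, H2-Aa by 5.82 ± 0.16, Cd74 by 4.36 ± 0.24 and H2-Ab1 by 4.85 ± 0.30. H2-Aa read 7.19, 7.02 and 7.54 on the CAF arrays and 13.22 and 12.90 on the CSC arrays. Of 20 interferon response genes, 3 were higher in CAF, 6 were higher in CSC and 11 did not pass. Lymphocyte markers were at list medians of 5.96 to 6.98 in CAF and 5.06 to 6.33 in CSC. Of 13 measured, 5 were higher in CAF and 1 in CSC. Without CSC replicate 1 these counts were 8 and 0. The gene higher in CSC was also not so called without CAF replicate 1, CAF replicate 2, COF replicate 1 or COF replicate 3. The class II and macrophage genes moved together here, and their part in each other's differences was not tested.

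Ligands and receptors were then read as pairs. Of 117 measured pairs, 21 had the ligand higher in CAF and the receptor higher in CSC, and 13 the reverse. Both genes were higher in CAF in 40 pairs and in CSC in 8, and 35 pairs had 1 or no gene past the test. The 34 split pairs were 24 when a pair had to stay split with each array of the series left out in turn, 15 with the ligand in CAF and 9 with the ligand in CSC. For comparison, 66.5% of all genes passed, so a passing pair was common. As 33.4% of all genes were higher in CAF and 33.1% in CSC, unrelated genes would also form split pairs in both directions. The share of split pairs among unrelated genes was not computed, so these counts are not read as a result about the pairs. The mRNA of a ligand and a receptor does not show that they meet.

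Pairs with the ligand in CAF joined stromal factors to receptors of epithelium and of myeloid cells. Kit, the receptor of Kitl, read 4.49, 4.71 and 5.31 on the CAF arrays and 9.07 and 10.37 on the CSC arrays, and Kitl 11.41, 11.40 and 11.23 on the CAF arrays and 9.49 and 9.20 on the CSC arrays. Tnfrsf11a, the RANK receptor, read 5.67, 5.52 and 5.47 on the CAF arrays and 7.22 and 7.99 on the CSC arrays and was higher in CSC by 2.05 ± 0.19, opposite to Tnfsf11. These 2 pairs are known from mammary epithelium. Cxcr4 was higher in CSC by 2.80 ± 0.55, from 5.72, 5.84 and 7.77 on the CAF arrays and 9.30 and 9.19 on the CSC arrays, with the third CAF array about 2 above the other CAF arrays. Csf1r and Ccr2, receptors of macrophages and monocytes, were higher in CSC by 4.13 ± 0.27 and 3.90 ± 0.25, and their ligands Csf1 and Ccl2 higher in CAF by 0.66 ± 0.21 and 3.15 ± 0.28. The Csf1 call was lost without CAF replicate 1 or CSC replicate 2 (adjusted p = 0.05001 and 0.188). Gas6 was higher in CAF by 2.89 ± 0.39 and its receptor Mertk in CSC by 2.33 ± 0.16. Efnb2 with Ephb4 and Wnt11 with Fzd7 were split in the same sense, but the 2 probe sets of Fzd7 were called in opposite directions. Jag1 and Notch1 also formed such a pair. Csf2 was higher in CAF by 4.03 ± 0.72 and its receptor chain Csf2rb in CSC by 1.94 ± 0.29.

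In the other direction, interleukin-1 ligands and some PDGF ligands were higher in CSC and their receptors in CAF. Il1r1 was higher in CAF by 3.83 ± 0.41, against Il1a and Il1b on the CSC side. Pdgfa, Pdgfb and Pdgfc faced Pdgfra and Pdgfrb, and Tgfa faced Egfr. Tnf was higher in CSC by 2.43 ± 0.21 and Tnfrsf1a in CAF by 0.76 ± 0.12. Wnt10a faced Fzd8, which was higher in CAF by 1.70 ± 0.13. Il1a, Il1b and Tnf are also made by macrophages, whose markers were higher in CSC as given above. Pairs with both genes called higher in CSC included Hgf with Met and Dll1 with Notch1. The Met call was lost without CSC replicate 1, as given above. The pairs Btc with Erbb4, Apln with Aplnr and Cxcl16 with Cxcr6, with the ligand in CSC, rested on single arrays. Btc lost its call without any one CAF array or CSC replicate 2 (adjusted p = 0.0509 to 0.241) and Erbb4 without CSC replicate 1 (adjusted p = 0.0654). Apln lost it without any one CAF array, COF replicate 2 or CSC replicate 2 (adjusted p = 0.0557 to 0.38). Cxcl16 was not called without CSC replicate 1 (adjusted p = 0.0629), nor Cxcr6 without CSC replicate 2 (adjusted p = 0.107).

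**Figure D5:**
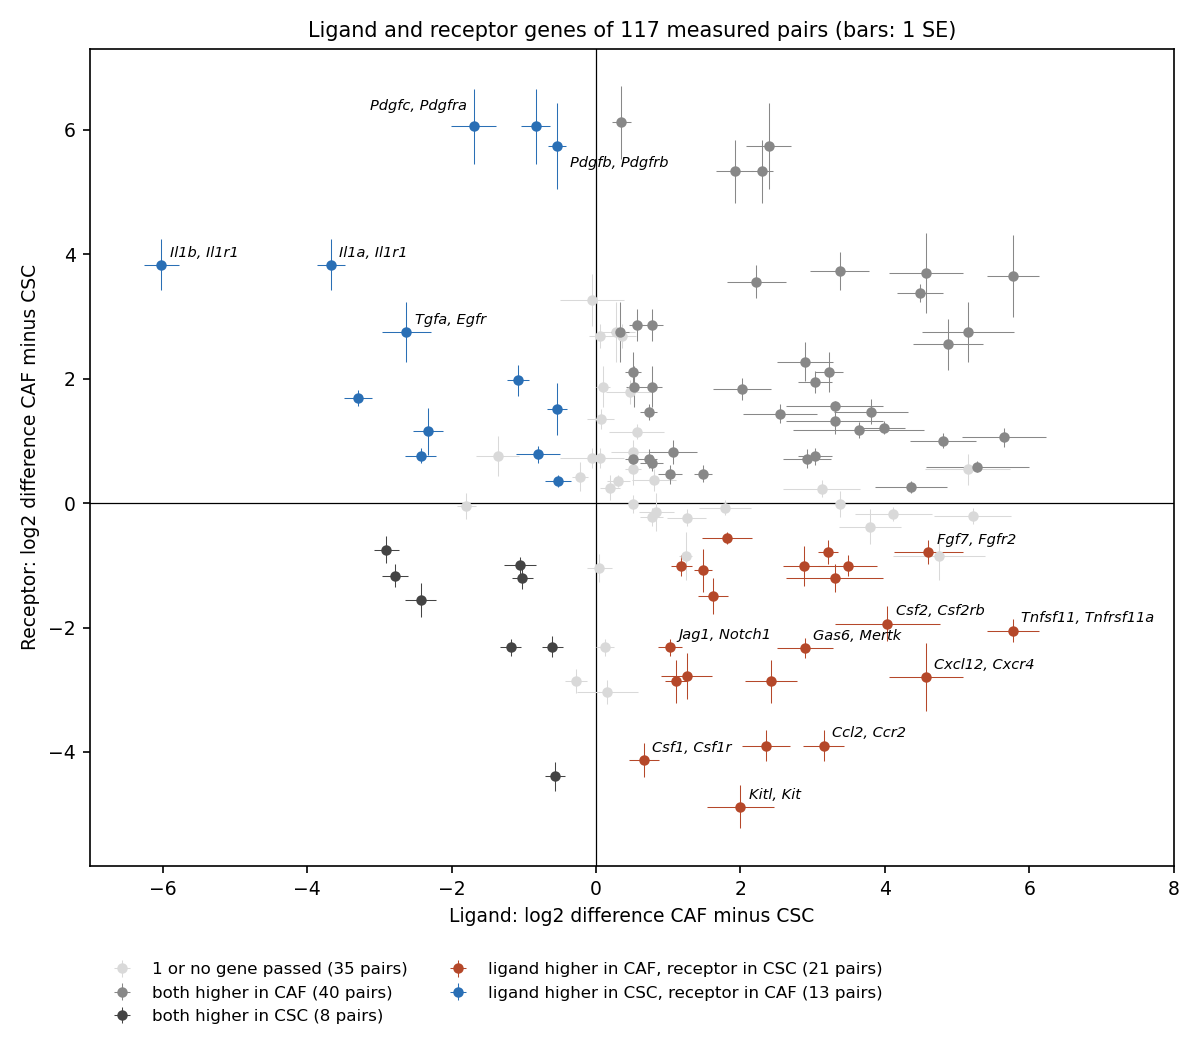
Each point is 1 of 117 ligand and receptor pairs, plotted by the log2 difference CAF minus CSC of the ligand (x axis) and of the receptor (y axis), with bars of 1 standard error. The 21 red pairs at the lower right have the ligand higher in CAF and the receptor higher in CSC, and the 13 blue pairs at the upper left the reverse; Tnfsf11 with Tnfrsf11a and Il1b with Il1r1 lie farthest out along the ligand axis.

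Cell cycle genes were mostly higher in CSC, 18 of 29 against 2 in CAF, with a median difference of -0.97. Mcm7, a subunit of the replicative helicase, read 8.19, 8.47 and 8.51 on the CAF arrays and 10.22 and 10.76 on the CSC arrays and was higher in CSC by 2.10 ± 0.19. Mcm5, of the same complex, was higher by 2.04 ± 0.23 and Aurka, a mitotic kinase, by 1.70 ± 0.25. Mki67, the proliferation antigen Ki-67, was higher in CSC by 1.79 ± 0.55, but not so called without CSC replicate 2 (adjusted p = 0.0933). Of 16 inhibitors, 7 were higher in CAF, 2 were higher in CSC and 7 did not pass. Cdkn2a, the locus of p16 and p19 ARF, read 9.47, 9.38 and 9.42 on the CAF arrays and 5.40 and 5.15 on the CSC arrays, a difference of 4.15 ± 0.27. The wild-type fibroblasts read 5.18, 5.46 and 5.24, so the CAF arrays stood above the CSC and the COF arrays. The TEC arrays were not compared for this gene. The neighbouring Cdkn2b was higher in CAF by 2.83 ± 0.21 and Cdkn1c, p57, by 2.12 ± 0.26, and Rb1 was higher in CSC by 2.82 ± 0.19.

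Of the energy metabolism genes, those of the respiratory chain showed small differences in 1 direction, and those of glycolysis and hypoxia lay on both sides. None of the 23 respiratory chain genes was higher in CAF and 18 were higher in CSC, with a median difference of -0.67. Uqcrc2, of complex III, was higher by 1.17 ± 0.12, and Sdha, of complex II, by 1.04 ± 0.10. Of 25 genes of glycolysis and hypoxia, 4 were higher in CAF, 15 were higher in CSC and 6 did not pass, with a median of -0.55. Aldoc stood far apart at 5.09, 5.13 and 5.30 on the CAF arrays and 11.05 and 11.45 on the CSC arrays. Hk2, a hexokinase, was higher in CAF by 2.09 ± 0.19, and Hk1, its widely expressed relative, in CSC by 1.97 ± 0.17. Pgam1, of glycolysis, and Cox6c, of complex IV, were the list genes whose 95% interval lay within 0.3 of no difference at a high level, reading 10.71, 10.73 and 10.71 on the CAF arrays and 10.75 and 10.70 on the CSC arrays and 12.24, 12.19 and 12.25 on the CAF arrays and 12.23 and 12.30 on the CSC arrays respectively. Centring the arrays on their medians moved the median of all genes from 0.015 to 0.096. The part of the processing in the differences of these lists was not tested.

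Prostaglandin and retinoid genes had one of the highest list medians on the CAF side, 3.38, with 12 of 18 higher in CAF and 3 in CSC. Ptgs2, the inducible cyclooxygenase, and Ptgfr, a prostaglandin F receptor, were higher in CAF by 2.96 ± 0.12 and 3.97 ± 0.21, and Aldh1a2, which makes retinoic acid, by 3.38 ± 0.18. Ptger3 read 11.11, 11.09 and 10.81 on the CAF arrays and 4.60 and 4.57 on the CSC arrays. Other members pointed to CSC, the receptor Ptger2 by 3.27 ± 0.27 and the retinoic acid carrier Crabp2 by 3.42 ± 0.15. Of 24 Hox and limb patterning genes 23 were higher in CAF and none in CSC, with a median of 1.21. Many are dim, and 14 were left among the brighter genes. The clearest were Hoxd8 by 3.81 ± 0.11, Hoxa5 by 3.77 ± 0.18, Hoxa10 by 3.65 ± 0.13 and Tbx3 by 3.23 ± 0.19. Hoxd8 read 8.86, 8.83 and 8.93 on the CAF arrays and 4.97 and 5.16 on the CSC arrays. Under the lower quartile lay 14 of the 24 genes on both CSC arrays and 7 on all 3 CAF arrays.

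Axon guidance genes were higher in CAF for 16 of 31 and in CSC for 7. The secreted guidance cue Slit2 was higher in CAF by 4.87 ± 0.49, the netrin Ntn4 by 2.88 ± 0.18 and Epha3 as given above. On the CSC side, Efna1, an ephrin ligand, was higher by 2.79 ± 0.18 and Sema4d by 2.27 ± 0.25. Immediate-early genes, which respond within minutes to handling and to growth factors, were high in both groups. Of 18 measured, 11 were higher in CAF and 2 in CSC, with a median of 0.43, and the latter count was 1 without any one of 6 arrays (the 3 CAF arrays, COF replicates 1 and 3 and CSC replicate 1). Egr2 was higher in CAF by 2.30 ± 0.13 and Klf4 by 1.60 ± 0.30. Klf4 read 13.89, 13.90 and 13.75 on the CAF arrays and 12.55 and 11.95 on the CSC arrays, near the top of the scale throughout.

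Within each group a few genes varied far more than the rest. Over all genes the median range across the CAF arrays was 0.162 and the median gap between the CSC arrays 0.179. The range exceeded 1 for 87 genes in CAF and the gap for 221 genes in CSC, 106 higher on replicate 1 and 115 on replicate 2. Replicate 2 of CSC held secretory genes of salivary and other exocrine glands: Mucl2 read 3.0 and 11.42, Pip 4.41 and 8.29, Mucl1 3.27 and 8.86 and Prol1 3.12 and 6.94 on the CSC arrays. None of them exceeded 4.12 on a CAF array. Replicate 1 of CSC was higher for the class II gene H2-Eb1, 12.42 and 8.15, and its leukocyte median was 10.76 against 10.02. Among the fibroblasts, replicate 3 was higher for lymphoid genes. Klrd1, a natural killer cell receptor, read 4.71, 5.87 and 6.98, Trbv1, a T cell receptor segment, 4.74, 5.12 and 6.97 and Gimap4, of lymphocytes, 4.79, 5.27 and 6.96. The leukocyte median of that array was 7.88, against 6.57 and 6.68. Dbp, a gene of the circadian clock, was lower there, 7.63, 7.20 and 5.38, and at 5.55 and 5.39 in CSC. For these genes a mean over a group does not describe its arrays.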

How the data were processed

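Total RNA of sorted mouse mammary cells, 100 ng each, was hybridised to 10 single-colour Affymetrix arrays. The authors deposited log2 values of 22690 probe sets, for which the submitters' processing notes name RMA. It subtracts background, equalises distributions and summarises probes; its version and whether all arrays were normalized together are not given. The values were used as deposited. Annotation gave 20393 probe sets 1 symbol, 691 several and 1606 none.

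For CAF minus CSC, limma 3.58.1 (R 4.3.3) fitted group means to all 10 arrays with lmFit and moderated the pooled variance with eBayes (6 residual and 3.02 prior degrees of freedom). The spread of the COF and TEC arrays thus enters each standard error. Tests were two-sided and adjusted over 12394 genes by the Benjamini-Hochberg method. The pipeline was tested on simulated data.

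The members, 59 gene lists (1028 genes, 937 measured) and 138 ligand-receptor pairs were chosen with earlier results of these data known. Genes were named by rule: the 15 greatest differences each way, up to 6 members per list with the smallest adjusted p and up to 3 called against the list's majority, fixed genes, split pairs, the 6 most variable genes of each group, and list members with a high level and an interval within 0.3 of no difference. The 15 greatest differences were taken among passing genes without overlap of the CAF and CSC arrays, leaving out predicted and unnamed genes. C1ra, Cldn4, Ctnnb1, Il6, Pdgfd, Pecam1, Ptx3, Snai1, Snai2, Tgfb1 and Tnfrsf11b were named after their values were seen. Other settings are given with the closing observations. Promoters are from RefSeq (GRCm38.p6).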

Additional observations from a re-analysis of the deposited data

How the results depend on the processing

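The count of passing genes, 8247, was 8691 with the 5 arrays alone, 8737 without the TEC arrays, 8269 with a variance trend, 8045 after a second quantile normalization, 8319 after median centring, 8428 with array weights (whose estimation did not converge), 8220 with the mean of all probe sets, 7983 without cross-hybridising probe sets and 9112 with any probe set of a gene. In that last setting 4924 genes were higher in CAF and 4592 in CSC. Genes whose probe sets were called in opposite directions count in both. With the replicate number as a block, which only replicates 1 and 2 of the groups share, the count of passing genes was 7813, 3918 higher in CAF and 3895 in CSC. The number was not taken as a pairing. Deviations of same-numbered CAF and CSC arrays from their group means correlated at -0.041 and 0.091. The deviations of the 2 CSC arrays mirror each other, so these values cannot decide whether the number is a pairing. Leaving out 1 array gave 7059 to 8737 genes, 3585 to 4423 higher in CAF, 3474 to 4314 in CSC, and 27 to 35 split pairs. Averaging CAF replicates 1 and 2 into 1 sample, tried after seeing how close they were, gave 7465. Without the 30% of genes dimmest by their mean over the 10 arrays, 2584 were higher in CAF, 3340 were higher in CSC and 21 pairs were split. Fewer genes were tested there, and their median difference was -0.124 against 0.015 over all genes. The cause of the lower counts was not tested. At a difference of at least 1 the counts were 3417, 1663 and 1754. The share of calls higher in CAF was 50.3%, 43.6% without the dimmest genes and 55.8% after median centring.

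Genes whose difference CAF minus CSC turned sign under a setting follow, and the cause was not tested. With the block, Pgam1 was 0.0051 and Wnt5a 0.0433. With the mean of all probe sets, Cox6c was 0.1314, Gimap4 -0.1050 and Sdc3 0.0075. Without cross-hybridising probe sets, Fgfr2 was 0.0357 and Gimap4 -0.5533. After a second quantile normalization, Shh was -0.0967 and Wnt5a 0.0395. After median centring, Cox6c was 0.0410, Pgam1 0.0789 and Wnt5a 0.0229. With array weights, Pgam1 was 0.0022 and Wnt5a 0.0362. With each array left out in turn, the difference ranged from -0.3012 to 0.9528 for Gimap4, from -4.9744 to 0.6186 for Mucl1, from -8.0733 to 0.3475 for Mucl2, from -0.0278 to 0.0235 for Pgam1, from -3.5500 to 0.2614 for Prol1, from -0.0152 to 0.2054 for Shh, from -0.6237 to 0.2742 for Snai2, from -0.1302 to 0.2351 for Tgfb1, from -1.0761 to 0.0399 for Trbv1 and from -0.6991 to 0.5828 for Wnt5a. For Mucl1, Mucl2 and Prol1 the sign turned without CSC replicate 2. Signal over background limits the dimmest genes, whose low-end values differed between the groups.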

Other observations

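Markers of further cell types that the report does not describe were read in the same way. Of 10 granulocyte markers, 0 were higher in CAF, 8 were higher in CSC and 2 did not pass. S100a8 and S100a9, which form calprotectin, read 13.62 and 13.24 and 12.90 and 11.37 on the CSC arrays, against 8.24, 8.16 and 9.18 and 6.99, 6.86 and 8.74 on the CAF arrays. Mammary epithelium can make them too, as well as Ltf, lactoferrin, which was higher in CSC by 4.50 ± 0.26. Ngp, a protein of neutrophil granules, was higher in CSC by 4.16 ± 0.20. Of 8 adipocyte genes, 6 were higher in CAF, 1 was higher in CSC and 1 did not pass. Fabp4, a fatty acid carrier, read 11.05, 11.46 and 11.49 on the CAF arrays and 6.75 and 7.50 on the CSC arrays and was higher in CAF by 4.20 ± 0.32, and Pparg, the adipogenic receptor, by 1.56 ± 0.18. The defining hormone Adipoq was called higher in CAF by 1.72 ± 0.36 although it read only 4.70, 4.46 and 5.0 there, under the lower quartile of those arrays. Cebpa went the other way, by 1.80 ± 0.11.

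Of 6 Schwann cell and nerve genes, 4 were higher in CAF and 2 were higher in CSC. Sox10, which also belongs to mammary epithelium, read 6.78, 6.96 and 6.68 on the CAF arrays and 10.43 and 10.55 on the CSC arrays and was higher in CSC by 3.68 ± 0.12. Ngfr and Pmp22 were higher in CAF by 1.74 ± 0.26 and 2.19 ± 0.26. Of 9 mast cell genes, 3 were higher in CAF, 2 were higher in CSC and 4 did not pass. Mcpt4, a mast cell protease, was higher in CAF by 1.04 ± 0.16, from 6.35, 5.81 and 6.05 on the CAF arrays and 4.90 and 5.15 on the CSC arrays. The 3 genes higher in CAF were 5 without CAF replicate 2, TEC replicate 1 or TEC replicate 2, and the 2 higher in CSC were 1 without CSC replicate 1. Of the 3 erythroid genes 2 were called higher in CAF and 0 in CSC, a count of 1 without CAF replicate 1, CAF replicate 2, COF replicate 3 or CSC replicate 1. They were Hba-a1 by 0.34 ± 0.12 and Slc4a1 by 1.57 ± 0.08, both under the lower quartile on every CAF and CSC array, and neither was left without the dimmest 30% of genes.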
